A study of Rattus norvegicus with 30 samples.

Results

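Efflux pumps of the ATP-binding cassette (ABC) family were followed in cultured rat hippocampal neurons through 8 genes, Abcc1, Abcc3, Abcc4, Abcc5, Abcc10, Abcb1a, Abcb6 and Abcg2. They were taken by gene symbol and are 8 of the 21993 genes measured, which hold 48 other ABC genes. The set was selected on the normalized values of Abcc4, which rose with dimethyl fumarate (DMF) at both times, so the values under DMF against its vehicle describe the choice and carry no test here. Wild-type primary neurons from Wistar rat embryos (embryonic day 18, 7 days in culture) received 30 µM DMF, 30 µM monomethyl fumarate (MMF) or 6 µM cannabidiol (CBD) for 4 h or 24 h. The vehicle was dimethyl sulfoxide (DMSO) for DMF and MMF and ethanol (EtOH) for CBD, at 0.2% in every culture, and each vehicle had libraries of its own at both times. Poly(A)+ RNA was sequenced from 3 repeats of the experiment, which gave 10 groups of 3 libraries, 30 in all, so p-values measure the spread between these 3 repeats. DMF and MMF differ in structure by a methyl ester: DMF carries a methyl ester on both acid groups of fumarate, and MMF keeps a free acid on one side.

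ABC transporters bind and hydrolyse ATP to move substrates across membranes, and the members treated here carry them out of the cell or, for Abcb6, across membranes of organelles. The Abcc pumps export organic anions such as glutathione, glucuronide and sulfate conjugates and cyclic nucleotides, whereas P-glycoprotein (Abcb1a) and the breast cancer resistance protein (Abcg2) expel a wide range of drugs and are best known in brain from the endothelium of the blood-brain barrier. Several of these genes are known targets of the stress-responsive transcription factor Nrf2, which binds antioxidant response elements and is activated by fumarates.

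To show the DNA in front of Abcc4, on whose values the set was selected, and of Abcb1a, which had the largest log2 difference from vehicle of the set with DMF and with CBD at 24 h, the 250 bases upstream of the transcript start were read from RefSeq on build GRCr8 for 6 of the 8 members (Abcc3 and Abcc5 had no entry). The sequences of Abcc4 and Abcb1a follow, 5′ to 3′ on the strand of the gene, with capitals marking the GC box core GGGCGG on either strand. Abcc4 lies on the minus strand at chr15:102181365-102181614 and Abcb1a on the minus strand at chr4:26397649-26397898.
Abcc4: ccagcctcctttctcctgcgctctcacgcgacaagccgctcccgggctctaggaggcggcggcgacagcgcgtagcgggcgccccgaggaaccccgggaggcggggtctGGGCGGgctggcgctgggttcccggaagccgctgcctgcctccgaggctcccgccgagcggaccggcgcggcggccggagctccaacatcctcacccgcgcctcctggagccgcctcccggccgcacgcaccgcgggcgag
Abcb1a: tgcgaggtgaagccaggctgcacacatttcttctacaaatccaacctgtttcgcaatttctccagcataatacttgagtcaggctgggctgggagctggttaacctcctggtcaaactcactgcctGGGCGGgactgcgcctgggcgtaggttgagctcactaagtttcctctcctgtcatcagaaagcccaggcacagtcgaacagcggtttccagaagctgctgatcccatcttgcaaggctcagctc
The GC content was 77.6% in the Abcc4 window and 54% in that of Abcb1a. Each held 1 GC box core. Abcc10 also held 1, Abcb6 held 2, and Abcc1 and Abcg2 held 4 each, with overlapping matches counted separately. The same 6 letters were found in 38.9% of 21842 windows of protein-coding genes of this length, and in 30.5% of all 33469 windows. The core of the antioxidant response element, TGACNNNGC on either strand, was found in none of the 6 windows and in 10.5% of those of protein-coding genes. Matches of this kind describe the letters of these windows only.

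The libraries held 15108132 to 25367834 reads on genes (median 20088658). Values given below are normalized values, the reads of a gene divided by the size factor of its library within the pair of groups compared, so the same library has a slightly different value in each comparison, or CPM (a gene's reads scaled to the total of its library) where all 10 groups are set side by side. All 12 neuronal markers had at least 10 reads in every library, and their summed level was 4259 to 5786 CPM. All 10 astrocyte markers had as many reads as well (2263 to 5780 CPM), as did 8 of the 10 markers of the oligodendrocyte lineage (505 to 1173 CPM for all 10). The exceptions were Mog with 3 to 15 reads and Mag with 4 to 25. Markers of pericytes and fibroblasts summed to 42.7 to 175 CPM, microglial ones to 23.9 to 50.6 CPM, and those of ependyma and choroid plexus to 17.8 to 32.2 CPM. Foxj1 of the last list had no entry among the genes measured and was not in the sum. The endothelial list summed to 9.59 to 21.2 CPM over 11 of its 12 genes, since Cldn5 had no entry either. In such bulk libraries, fewer cells of a type and less RNA per cell cannot be told apart. The drug libraries of CBD at 24 h stood apart from each other: 1.53% of genes lay more than 1 log2 unit from EtOH of the same number in replicate 1, 2.58% in replicate 2 and 5.14% in replicate 3.

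Abcc4 was higher than in the vehicle in every library with DMF and with CBD, at both times, and not with MMF. Abcb1a was close to absent in vehicle and reached 75 to 375 reads in some libraries after 24 h of DMF or CBD. Abcg2 was low throughout, with its lowest mean in 4 h DMF (0.801 ± 0.363 CPM, SD, n = 3) and its highest in 24 h DMF (2.01 ± 0.304 CPM). Abcc1, Abcc5, Abcc10 and Abcb6 had log2 differences between -0.32 and 0.28 against vehicle in all 6 drug comparisons.

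**Figure D1:**
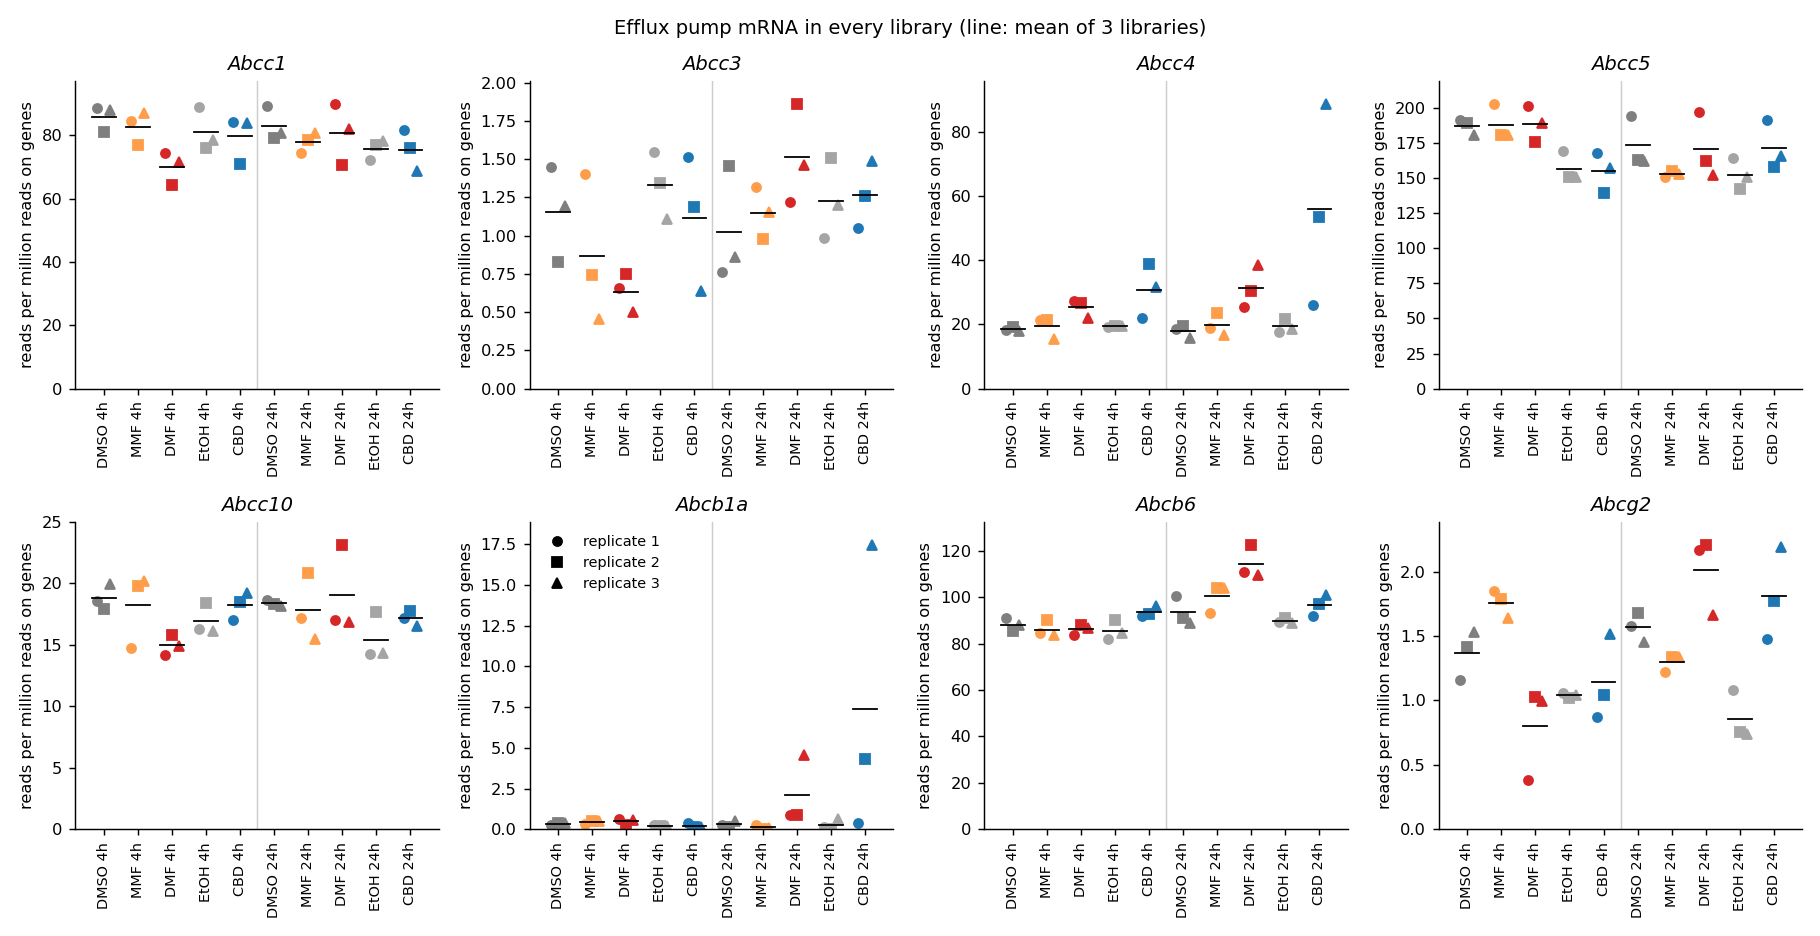
Each panel shows 1 efflux pump gene, with CPM (linear axis from 0) for the 3 libraries of each of the 10 groups and a line at their mean. Abcc4 rises from means of 17.9 to 19.7 CPM in the vehicle and MMF groups to between 25.3 and 56.0 CPM with DMF and CBD, and Abcb1a is near 0 in all but some libraries of 24 h DMF and 24 h CBD.

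Abcc4 (ENSRNOG00000010064, chr15:95542315-95774283 on mRatBN7.2, the build of the files) encodes an exporter of cyclic nucleotides, prostaglandins and conjugates. After 4 h its normalized values were 535, 526 and 453 with DMF and 361, 379 and 361 with DMSO. After 24 h they were 467, 569 and 722 with DMF and 345, 365 and 297 with DMSO. The groups did not overlap at either time, and each of the 3 pairs of the same replicate number pointed upwards. The log2 fold change (log2FC) was 0.46 ± 0.10 (SE, n = 3 against 3) at 4 h and 0.78 ± 0.15 at 24 h, that is means 1.38 and 1.75 times those of DMSO. These are the values that chose the set, given as a description. Without replicate 3 of DMF at 24 h the log2FC at that time was 0.62.

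CBD was compared with EtOH, so these libraries were not part of the choice. Abcc4 stood at 428, 755 and 618 with CBD for 4 h against 374, 383 and 385 with EtOH, and at 481, 1002 and 1647 with CBD for 24 h against 332, 420.0 and 364. All 3 drug libraries lay above all 3 vehicle libraries at both times, with replicate 1 the lowest of the CBD libraries each time. The log2FC was 0.62 ± 0.19 at 4 h (limma, adjusted p = 1.00) and 1.32 ± 0.38 at 24 h (limma, adjusted p = 0.379), and neither passed the threshold of 0.05. When replicates were blocked, the 4 h difference passed (limma, adjusted p = 0.00209, n = 3 pairs) and the one at 24 h did not (limma, adjusted p = 0.0858). DESeq2 with the same block did not call the 4 h difference (adjusted p = 0.277). The 24 h difference passed when replicate 1 of CBD at 24 h was left out (log2FC 1.79, limma, adjusted p = 0.0156) and when the spread was taken from all 30 libraries (limma, adjusted p = 0.00894). Without replicate 3 of CBD at 24 h the log2FC was 0.91. DESeq2 gave adjusted p = 0.483 at 4 h and 0.135 at 24 h.

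MMF, which shares its DMSO libraries with DMF, left Abcc4 overlapping with the vehicle at both times. At 4 h the values were 380.4, 380.2 and 281 with MMF against 329.5, 346 and 329 with DMSO. At 24 h they were 371, 458 and 322 against 363, 384 and 312. The log2FC was 0.04 at 4 h (95% interval -0.28 to 0.36; limma, adjusted p = 1.00) and 0.11 at 24 h (95% interval -0.20 to 0.42; limma, adjusted p = 0.964). At the same dose, Abcc4 was 0.41 ± 0.14 log2 units higher with DMF than with MMF at 4 h and 0.67 ± 0.17 higher at 24 h, without overlap. Those comparisons use the DMF libraries on which the gene was picked and are given without a test. Without replicate 3 of MMF at 4 h the first of these was 0.27. From 4 h to 24 h of DMF, Abcc4 went from 551, 541 and 464 to 519.9, 632 and 805, a log2FC of 0.31 ± 0.16 with overlapping groups, and of 0.15 without replicate 3 of DMF at 24 h. Between 4 h and 24 h of CBD it went from 416, 737 and 604 to 486, 1010.1 and 1662 (log2FC 0.71 ± 0.42, limma, adjusted p = 0.785; 1.18 without replicate 1 of CBD at 24 h).

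Across the 10 groups the mean level of Abcc4 was highest with CBD at 24 h (56.0 ± 31.5 CPM, SD, n = 3), then with DMF at 24 h (31.5 ± 6.70), CBD at 4 h (30.8 ± 8.39) and DMF at 4 h (25.3 ± 2.80). The remaining 6 groups, MMF and both vehicles at both times, ran from 19.7 down to 17.9 CPM. The step from DMF at 4 h to the next group, MMF at 24 h, exceeded the larger SD of the neighbours, and each of the other steps in the order was within it.

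Abcb1a (ENSRNOG00000008012, chr4:25158362-25442709) encodes P-glycoprotein, the classical multidrug pump. Its annotated span covers the whole of its close paralog Abcb1b and shares 50841 bases with Abcb4, so reads of near-identical stretches may have been split between them, and its counts are uncertain to that extent. Over all 30 libraries it had a median of 6.5 reads, and 1 library, EtOH replicate 2 at 24 h, had 0, a count that allows up to 3. After 24 h the normalized values were 16.4, 16.3 and 85.0 with DMF against 4.36, 2.56 and 9.94 with DMSO, again a description of the contrast that chose the set. They were 6.87, 80.7 and 324 with CBD against 2.76, 0 and 12.7 with EtOH. Replicate 3 was the highest library in both drug groups, and replicate 1 of CBD lay inside the range of EtOH. The log2FC for CBD was 4.00 ± 1.36 (limma, adjusted p = 0.443), and of the settings tried it passed with the spread taken from all 30 libraries (limma, adjusted p = 0.0221). Leaving out 1 library moved the log2FC between 2.77 (without replicate 3 of CBD) and 5.45 (without replicate 1 of CBD). The gene passed the filter with the help of replicates 2 and 3 of CBD, in which it is high, so nothing is read from this difference.

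At 4 h Abcb1a did not pass the filter on low counts in any drug comparison, with 2 to 12 reads per library with drug or vehicle. MMF for 24 h gave 4.75, 0.867 and 1.79 against 4.59, 2.69 and 10.4 with DMSO, also below the filter. Against MMF, the 24 h DMF libraries stood at 18.1, 18.0 and 93.8 against 5.01, 0.911 and 1.89. That log2FC of 3.34 ± 0.70 passed the test (limma, adjusted p = 0.0384) and lost it without any 1 of the 6 libraries (limma, adjusted p = 0.0523 to 0.13). The gene was kept by the filter only through the DMF libraries, in which it is high, so a difference was bound to appear. From 4 h to 24 h of DMF it was 13.2, 5.63 and 11.4 and then 18.2, 18.1 and 94.7 (log2FC 1.64 ± 0.63, limma, adjusted p = 0.114, and 0.0175 with the replicate block), where it passed the filter with the help of its higher 24 h libraries. DESeq2 called it, with an adjusted p of 0.0153, and of 0.0198 when the block was included. Without replicate 3 of DMF at 24 h that log2FC was 0.86, and the one against DMSO was 1.55.

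Markers of other cell types were set beside these values at 24 h. The 10 astrocyte markers summed to 3200 to 5780 CPM with DMF and 3017 to 5062 with DMSO, with overlap. With CBD they summed to 2348 to 5153 CPM and with EtOH to 3088 to 5152, also with overlap. The 11 endothelial markers with an entry summed to 10.3 to 14.1 CPM with DMF and 12.05 to 14.2 with DMSO, and to 11.3 to 18.3 with CBD and 12.4 to 15.9 with EtOH, with Cdh5 at 3 reads or fewer in every library. The 11 microglial markers summed to 31.9 to 41.4 CPM with DMF against 26.5 to 30.9 with DMSO, and to 36.3 to 50.6 with CBD against 25.2 to 32.6 with EtOH, without overlap. Markers of the oligodendrocyte lineage were lower with DMF (645 to 786 CPM) than with DMSO (787 to 957 CPM), and neuronal markers lower with CBD (4735 to 5083 CPM) than with EtOH (5136 to 5786 CPM). Pericyte and fibroblast markers were higher with MMF (72.5 to 104 CPM) than with DMSO (42.7 to 65.4 CPM) or DMF (47.5 to 66.2 CPM), and ependymal and choroid plexus markers higher with MMF (22.6 to 29.6 CPM) than with DMSO (18.9 to 21.4 CPM) or DMF (18.9 to 22.1 CPM). In every 24 h comparison of a drug with its vehicle not given here, the sums of these lists overlapped. The part of these lists in the differences of Abcc4, Abcb1a, Abcb6, Abcc5 and Abcg2 at 24 h was not tested.

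Abcb1b, the paralog inside the Abcb1a span and no member of the set, was measured with more reads. Its counts share the uncertainty given for Abcb1a, since reads may have been split between the genes. It stood at 244, 297 and 371 with DMF for 24 h against 58.8, 64.0 and 49.7 with DMSO, a log2FC of 2.37 ± 0.18 (limma, adjusted p = 0.000574) that held without each library in turn. With CBD for 24 h it was 96.2, 87.1 and 112 against 97.4, 42.5 and 85.0, with overlapping groups (log2FC 0.47 ± 0.31, limma, adjusted p = 0.643). The difference between the genes in their response was not tested.

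Abcg2 (ENSRNOG00000007041, chr4:87745319-87802409) exports urate, sulfate conjugates and many drugs, and had 7 to 47 reads per library. With DMF it was 7.51, 20.3 and 20.4 at 4 h against 22.9, 28.1 and 30.8 with DMSO, and 40.0, 41.3 and 31.1 at 24 h against 29.4, 31.6 and 27.3. The log2FC was -0.83 ± 0.41 at 4 h, without overlap, and 0.33 ± 0.22 at 24 h, with overlap, both given as descriptions. Without replicate 1 of DMF at 4 h, the library with 7.51, the first value was -0.39. Within DMF the gene rose from 4 h to 24 h (log2FC 1.39 ± 0.39, limma, adjusted p = 0.0445). It passed the filter there with the help of its higher 24 h libraries, so nothing is read from this call. That call was lost on leaving out any library but replicate 3 of DMF at 4 h, with adjusted p of 0.0632 to 0.14 in limma, and without the filter on low counts (limma, adjusted p = 0.0561).

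Against MMF at the same dose, Abcg2 was 7.43, 20.1 and 20.2 with DMF for 4 h and 35.6, 34.7 and 32.7 with MMF. The log2FC was -1.18 ± 0.39 (limma, adjusted p = 0.165), and it passed with the replicate block (limma, adjusted p = 0.0118) and with the spread of all 30 libraries (limma, adjusted p = 0.00628), but not in DESeq2 with the block (adjusted p = 0.122). The gene passed the filter there with the help of its higher MMF libraries, so nothing is read from these passes. Without replicate 1 of DMF at 4 h the log2FC was -0.74. At 24 h the order was turned, with 44.2, 45.6 and 34.3 for DMF and 25.1, 27.3 and 27.3 for MMF (log2FC 0.61 ± 0.22, limma, adjusted p = 0.203). MMF against DMSO moved it by 0.34 ± 0.25 at 4 h and -0.28 ± 0.21 at 24 h, without overlap at either time and with adjusted p of 1.00 and 0.952 in limma. CBD for 24 h gave 27.5, 33.3 and 40.6 against 20.2, 14.5 and 14.5 with EtOH. That log2FC of 1.00 ± 0.28 was without overlap and not called (limma, adjusted p = 0.379), except with the spread of all 30 libraries (limma, adjusted p = 0.0444).

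Abcb6 (ENSRNOG00000018697, chr9:76668554-76676924) transports porphyrins and sits in mitochondrial and endolysosomal membranes. Its normalized values after 24 h were 2047, 2290.2 and 2045 with DMF and 1868, 1710.1 and 1672 with DMSO, against 1645, 1749 and 1777 and 1789.9, 1688 and 1767 at 4 h. The log2FC was 0.28 ± 0.07 at 24 h, without overlap, and -0.02 ± 0.07 at 4 h. Within DMF it rose from 1693, 1798 and 1819 at 4 h to 2278, 2544 and 2281 at 24 h, a log2FC of 0.42 ± 0.08 (limma, adjusted p = 0.00886). This call held without each library in turn, with 0.0432 as the largest adjusted p in limma. The corresponding time difference was 0.25 ± 0.07 in MMF (limma, adjusted p = 0.418), 0.12 ± 0.07 in DMSO (limma, adjusted p = 0.588) and 0.03 ± 0.07 in CBD (limma, adjusted p = 0.959). In CPM the 24 h DMF group was the highest of the 10 (114 ± 7.25), and the step to the second, 24 h MMF (100.3 ± 6.22), exceeded the spread.

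Among the other Abcc genes, Abcc1 (ENSRNOG00000022305, chr10:531812-655114) exports glutathione conjugates and oxidized glutathione. It stood at 1461, 1275 and 1469 with DMF for 4 h and at 1751, 1601 and 1767 with DMSO, a log2FC of -0.28 ± 0.08 without overlap. At 24 h the values with DMF, 1660.1, 1317 and 1534, overlapped with 1661, 1488 and 1516 with DMSO (log2FC -0.05 ± 0.09). Against MMF at 4 h it was lower with DMF, without overlap, by -0.22 ± 0.09 (limma, adjusted p = 0.257, and 0.0115 with the replicate block). An unnamed protein-coding gene annotated inside the Abcc1 span shares 10154 bases with it.

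Abcc10 (ENSRNOG00000018863, chr9:14657264-14677178), an exporter of lipophilic anions and some cytostatic drugs, was also lower at 4 h of DMF and overlapped with DMSO at 24 h. With DMF for 4 h it was 278, 314 and 306 against 365, 354 and 399.8 with DMSO (log2FC -0.32 ± 0.10, no overlap), and at 24 h 315, 432 and 316 against 348, 344 and 341 (log2FC 0.03 ± 0.13). Its span shares 617 bases with that of Dlk2. Within DMF, Abcc1 and Abcc10 were higher at 24 h than at 4 h by 0.21 ± 0.10 and 0.34 ± 0.14, which of the settings tried passed with the replicate block (limma, adjusted p = 0.0236 and 0.0302, against 0.194 and 0.137 without it). DESeq2 with the block called neither (adjusted p = 0.0769 and 0.107).

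Abcc3 (ENSRNOG00000002948, chr10:79296693-79342595), an exporter of glucuronides and bile acids, had only 8 to 36 reads per library. DMF for 4 h gave 12.9, 14.9 and 10.2 against 28.6, 16.4 and 23.9 with DMSO, and for 24 h 22.5, 34.8 and 27.3 against 14.2, 27.3 and 16.2. The log2FC was -0.79 ± 0.33 at 4 h and 0.56 ± 0.32 at 24 h. From 4 h to 24 h of DMF it rose from 13.2, 15.3 and 10.4 to 25.1, 38.6 and 30.5 (log2FC 1.20 ± 0.30, limma, adjusted p = 0.0298). Leaving out a library removed the call in 5 of 6 cases, all but replicate 1 of DMF at 24 h, with adjusted p of 0.0664 to 0.123 in limma. It was also lost without the filter (limma, adjusted p = 0.051) and in DESeq2 with the replicate block (adjusted p = 0.0932).

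Abcc5 (ENSRNOG00000029178, chr11:80473872-80567253), an exporter of cyclic nucleotides, was measured with 2310 to 4471 reads per library and overlapped with DMSO at both times under DMF. Its log2FC was 0.02 ± 0.07 at 4 h and -0.04 ± 0.10 at 24 h. With MMF for 24 h it was 2949, 3013 and 2970.3 against 3818, 3221 and 3205 with DMSO, apart by -0.19 ± 0.07 and not called (limma, adjusted p = 0.952). Without replicate 1 of DMSO at 24 h the difference was -0.11. With CBD the intervals of its log2FC were -0.22 to 0.17 at 4 h and -0.09 to 0.35 at 24 h.

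**Figure D2:**
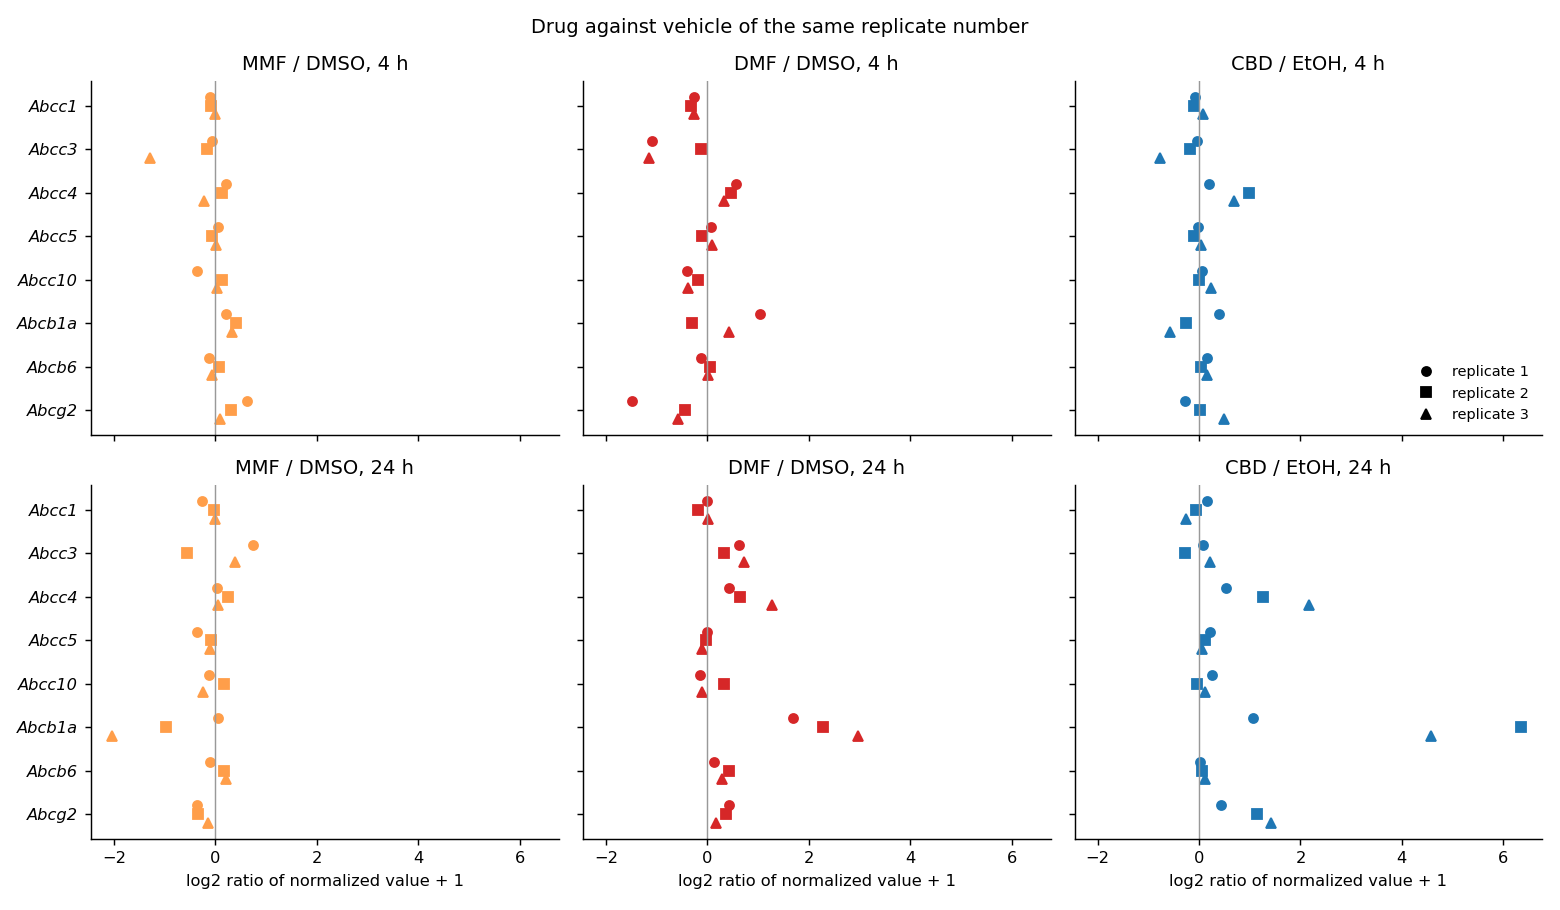
Points give the log2 ratio of normalized value + 1 of a drug library to the like-numbered vehicle library, for the 8 genes (rows) in the 6 drug comparisons (panels). Abcc4 is right of 0 in all 3 replicates with DMF and CBD at both times, and Abcb1a spreads from 1.07 to 6.35 with CBD and from 1.70 to 2.97 with DMF at 24 h.

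Counted over the family, DMF against DMSO passed the test for 1 of 7 members that passed the filter at 4 h and 1 of 8 at 24 h, Abcc4 each time, where 3.41% and 3.97% of all genes did. With the replicate block it was 3 members at each time, beside 23% and 12.9% of all genes. Nothing is read from these counts, since the contrast chose the set. Groups did not overlap for 5 of 7 members at 4 h (1 higher, 4 lower) and for 3 of 8 at 24 h (all higher, Abcb1a among them), beside 26.3% and 22.8% of all genes. The median log2FC of the members that passed the filter was -0.28 at 4 h and 0.30 at 24 h, against 0.00 and -0.01 over all genes tested.

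No member was called for MMF against DMSO by limma, out of 7 at either time, and edgeR and DESeq2 called none. The background was 0% of genes at 4 h and 0.00707% at 24 h. At an unadjusted p under 0.05 there were 0 members at 4 h and 1 at 24 h, Abcc5. Groups did not overlap for 1 member at 4 h and 2 at 24 h, against 2.76% and 9.73% of all genes. The upper bounds of the 95% intervals of the log2FC at 24 h were 0.88 for Abcc3, 0.42 for Abcc4, 0.24 for Abcb6, 0.19 for Abcg2, 0.18 for Abcc10, 0.03 for Abcc1 and -0.03 for Abcc5.

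CBD against EtOH likewise gave no call by limma, edgeR or DESeq2, out of 7 members at 4 h and 8 at 24 h, where 0.00705% and 0.114% of all genes were called. Unadjusted p was under 0.05 for 1 member at 4 h, Abcc4, and for 3 at 24 h, Abcc4, Abcg2 and Abcb1a, the last kept by the filter with the help of its high CBD libraries. Groups did not overlap for Abcc4 and Abcb6 at 4 h and for Abcc4 and Abcg2 at 24 h, against 9.95% and 15.9% of all genes. With the replicate block 1 member was called at 4 h and 0 at 24 h, beside 2.33% and 0.504% of genes.

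For DMF against MMF, leaving Abcc4 aside, 0 of 6 members were called by limma, edgeR or DESeq2 at 4 h (2 at an unadjusted p under 0.05) where 1.61% of genes were called. At 24 h limma, edgeR and DESeq2 each called 1 of 7, Abcb1a, where 3.56% of genes were called. Since the filter kept Abcb1a only through the DMF libraries in which it is high, nothing is read from that call, and none of the other 6 was called (2 at an unadjusted p under 0.05). The replicate block gave 2 members at 4 h, and at 24 h again Abcb1a alone, against 23.6% and 12.2% of genes. Groups were apart for Abcc1 and Abcg2 at 4 h, both lower with DMF, and for Abcb1a, Abcb6 and Abcg2 at 24 h, all higher with DMF, beside 24.2% and 22.7% of genes. At 4 h Abcg2 passed the filter with the help of its higher MMF libraries, so nothing is read from its part in the 4 h counts. These comparisons share the DMF libraries with the contrast that chose the set.

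**Figure D3:**
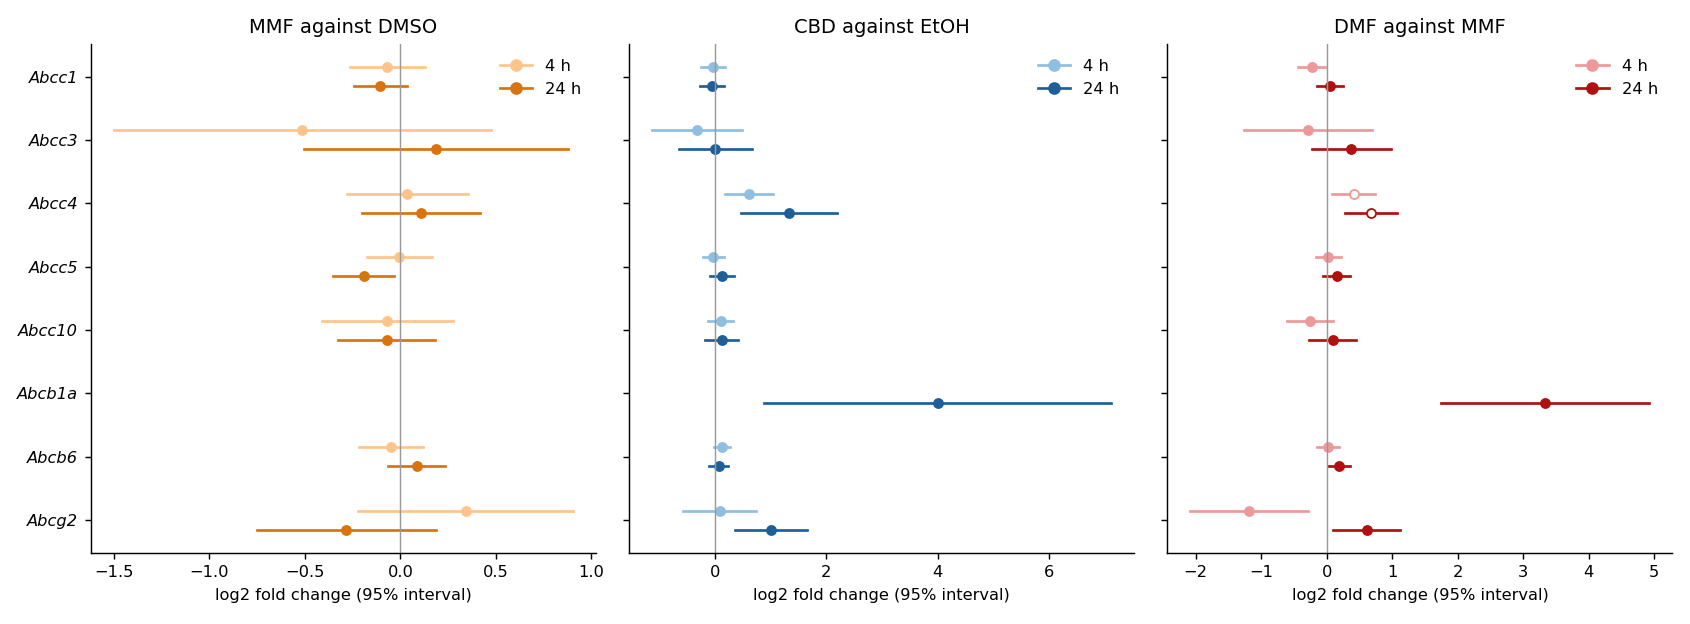
Points are log2FC from limma and bars their 95% intervals, at 4 h and 24 h, for MMF against DMSO, CBD against EtOH and DMF against MMF, each panel with its own scale. Genes below the filter have no point, and open points mark Abcc4 in the comparisons that use the DMF libraries on which it was picked. The MMF intervals of all members but Abcc5 at 24 h include 0, and the widest bar is that of Abcb1a with CBD, from 0.88 to 7.11.

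From 4 h to 24 h of DMF, 3 of 7 members other than Abcc4 rose (Abcc3, Abcb6 and Abcg2), and none fell, while 15.5% of all genes were called. The DMF libraries are those on which the set was picked. DESeq2 called 4, Abcb1a besides those 3. With the replicate block 6 of the 7 were called, beside 32.3% of genes, and 5 of the 7 did not overlap between times, beside 36.1%. Abcb1a is among the 6 and the 5, and Abcg2 among the 3 called by limma. Both passed the filter with the help of their higher 24 h libraries, so nothing is read from their part in these counts. The same comparison gave no call in MMF, CBD, DMSO or EtOH by limma or edgeR, with 0% of genes called in each of the 4 groups. Unadjusted p was under 0.05 for 2 members in MMF (Abcc5 and Abcb6) and 0 in the other 3 groups. DESeq2 called Abcb1a in CBD (adjusted p = 0.0474), a gene below the filter there, and no other member.

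The vehicles were compared as a background for the drug effects. Between DMSO and EtOH no member was called by limma, edgeR or DESeq2 at either time, and 0% of genes were called at both. The unadjusted p was under 0.05 for Abcc5 at 4 h and for Abcc5, Abcc10 and Abcg2 at 24 h. Groups did not overlap for 3 of 7 members at 4 h and 4 of 7 at 24 h, against 9.39% and 9.86% of all genes. Abcg2 was 29.4, 31.6 and 27.4 with DMSO and 19.7, 14.16 and 14.02 with EtOH at 24 h (log2FC 0.86 ± 0.26), a difference close in size to that of CBD against EtOH. Abcc4 was lower with DMSO than with EtOH by -0.08 ± 0.09 at 4 h, without overlap, and by -0.10 ± 0.12 at 24 h, with overlap.

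Whether drug effects differed was tested as a difference of log2FC over 12 libraries. The effect of MMF minus that of CBD at 24 h was -1.21 ± 0.45 for Abcc4 (limma, adjusted p = 0.485), -4.99 ± 1.68 for Abcb1a (limma, adjusted p = 0.447) and -1.28 ± 0.32 for Abcg2 (limma, adjusted p = 0.274). Without replicate 1 of CBD at 24 h, the differences for Abcc4 and Abcb1a passed, at -1.69 and -6.45 (limma, adjusted p = 0.0171 and 0.0461). Abcb1a was below the filter in the MMF comparison and entered here with the help of the CBD libraries in which it is high, so nothing is read from its pass. No member was called by limma, edgeR or DESeq2 with all libraries, of 8 at 24 h and 7 at 4 h, where 0.0758% and 0.00693% of genes were, and unadjusted p was under 0.05 for 4 (Abcb1a among them) and 1 members. The change of the CBD effect and of the MMF effect between 4 h and 24 h gave 0 called members and 0% of genes with limma, with 2 (Abcb1a and Abcg2) and 1 (Abcg2) members at an unadjusted p under 0.05 and none by edgeR or DESeq2. The change of the DMF effect between the times, a description, was largest in size for Abcb1a (1.93 ± 0.86), Abcc3 (1.35 ± 0.45) and Abcg2 (1.16 ± 0.46), and 0.33 ± 0.20 for Abcc4.

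Of the 48 other ABC genes, 33 passed the filter in each drug comparison with vehicle. DMF raised 1 of them at 4 h and 4 at 24 h and lowered none by limma, whereas blocking on the replicate number gave 7 up and 3 down at 4 h and 5 up and 1 down at 24 h. Of all genes, limma called 3.41% at 4 h and 3.97% at 24 h, and 23% and 12.9% with the block. None was called for MMF or CBD at either time by limma, with or without the block, edgeR or DESeq2. At an unadjusted p under 0.05 there were 0 with MMF and 0 with CBD at 4 h, and 1 with MMF and 5 with CBD at 24 h. The gene at 4 h was Tap1, which loads peptides for antigen presentation, with 259.5, 268 and 309 against 162, 186 and 155 with DMSO (log2FC 0.73 ± 0.13, limma, adjusted p = 0.0301). Besides Abcb1b, the genes at 24 h were Abca6 (log2FC 2.42 ± 0.43, limma, adjusted p = 0.0177), Abca8 (0.86 ± 0.19, limma, adjusted p = 0.0374) and the cholesterol exporter Abcg1 (0.52 ± 0.11, limma, adjusted p = 0.0374). Each of these calls other than that of Abcb1b was lost without at least 4 of the 6 libraries in turn. Abcb4, the phospholipid floppase next to Abcb1a, and the conjugate exporter Abcc2 were not called (log2FC 0.18 ± 0.18 and 0.29 ± 0.19 at 24 h, limma, adjusted p = 0.677 and 0.477). The median log2FC of the 33 genes was 0.01 at 4 h and 0.07 at 24 h.

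**Figure D4:**
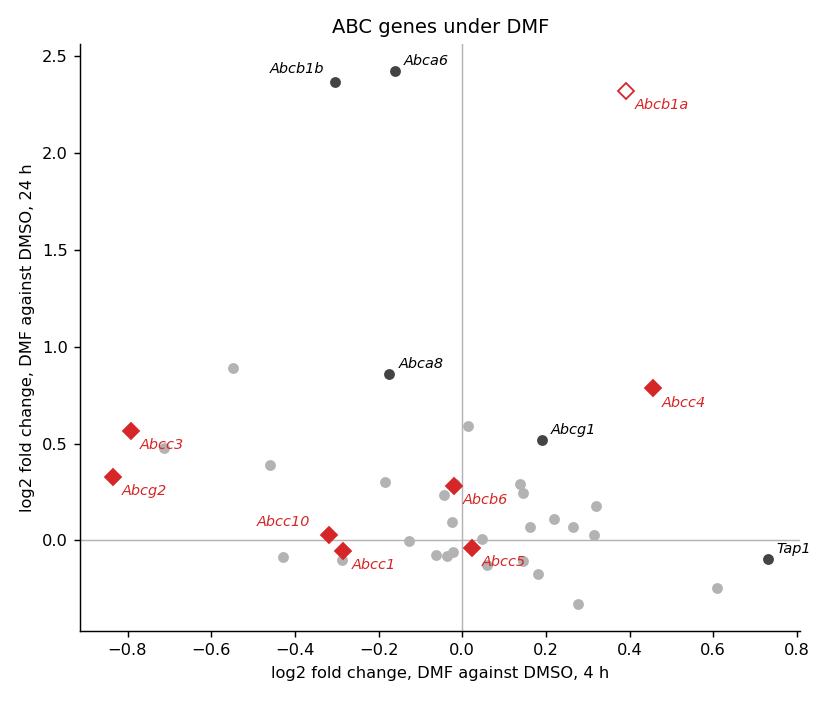
Log2FC of DMF against DMSO at 4 h (horizontal) and 24 h (vertical) for the 8 efflux pump genes (red diamonds, open for Abcb1a, below the filter at 4 h) and 33 other ABC genes (circles, dark and named where the test passed at either time). Among the filled diamonds Abcc4 lies farthest above 0 on both axes (0.46 and 0.78), while Abcb1b, Abca6 and Abcb1a lie highest at 24 h.

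Genes of glutathione and conjugation were followed as a list of 20, which also holds Hmox1 and Nqo1. The lists of this paragraph were chosen with earlier results of these data known. Their counts and medians beside those of all genes are therefore descriptions and no test of the lists. With DMF, 1 of 18 tested was higher at 4 h (Hmox1, which degrades heme) and 7 of 18 at 24 h, among them the glutathione transferase Gstp1 (log2FC 1.55 ± 0.06, limma, adjusted p = 2.19e-05), the quinone reductase Nqo1 (2.35 ± 0.10, limma, adjusted p = 2.19e-05) and Gsta1 (2.34 ± 0.19, limma, adjusted p = 0.000623). None was lower. The replicate block called 7 of 18 at 4 h and 8 of 18 at 24 h, and DESeq2 called 3 and 7 of 20. Of all genes, limma called 1.87% higher with DMF at 4 h and 1.88% at 24 h, and 11.5% and 5.81% with the block. With MMF, 1 of 19 was higher at 24 h, Gstp1 (0.66 ± 0.06, limma, adjusted p = 0.0454), and 8 of 19 with the replicate block and 5 of 20 with DESeq2. Of all genes, 0.00707% were higher there by limma and 1.21% with the block. None was called with MMF at 4 h or with CBD at either time by limma or edgeR (2, 3 and 6 at an unadjusted p under 0.05), while DESeq2 called Hmox1 and Gstp1 with CBD at 24 h and the replicate block Hmox1 and Slc7a11 with CBD at 4 h. The median log2FC of the list was 0.21 and 0.26 with DMF, 0.06 and 0.32 with MMF and 0.04 and 0.13 with CBD, at 4 h and 24 h. Of 16 regulators of efflux pump genes, Mafg was higher with DMF at 4 h (0.46 ± 0.07, limma, adjusted p = 0.0196), and Mafg and Nfe2l2, which encodes Nrf2, at 24 h (0.30 ± 0.06 and 0.97 ± 0.16, limma, adjusted p = 0.0344 and 0.0117). The replicate block called 4 of 15 tested regulators higher at each time, beside 11.5% and 5.81% of all genes. They were Mafg, Rxra, Sp1 and Arnt at 4 h and Mafg, Nfe2l2, Rxra and Maff at 24 h, and DESeq2 called 1 and 4. No regulator was called with MMF or CBD by limma, edgeR or DESeq2 (0 with MMF and 2 with CBD at an unadjusted p under 0.05, at each time), and the replicate block called Maff with CBD at 4 h. Rxra, Sp1, Arnt and Maff are named here after their values were seen. Of 15 uptake carriers of the Slco family, Slco2a1, a prostaglandin carrier, was higher with DMF at 4 h (2.66 ± 0.50, limma, adjusted p = 0.0335), among 7 tested. The 5 to 7 carriers tested in the other drug comparisons gave no call by limma, edgeR or DESeq2, with 1 at an unadjusted p under 0.05 with CBD at each time, 1 with MMF at 24 h and 0 in the rest. The replicate block called Slco1c1, a thyroid hormone carrier, higher with MMF at 24 h (log2FC 0.55 ± 0.13, limma, adjusted p = 0.00427, and 0.952 without the block).

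Over the 30 libraries, with the mean of each replicate number subtracted, the genes whose log2 CPM was most like that of Abcc4 among 14929 were Slc3a2 (r = 0.97), Slc7a5 (r = 0.96), Asns (r = 0.94), Mdfic (r = 0.94) and Slc7a3 (r = 0.92). The points share libraries and depth, and r is given as a description. Slc3a2 and Slc7a5 stayed first and second over the 10 group means and without the subtraction, and Asns had rank 41 in the latter. Slc3a2 stood at 667 ± 370.2 CPM with CBD at 24 h, 335 ± 58.3 with DMF at 24 h, 349 ± 65.4 with CBD at 4 h and 277 ± 16.6 with DMF at 4 h, and at 214 to 242 in the other 6 groups. Among the other members, r with Abcc4 was 0.76 for Abcb1a, -0.45 for Abcc1 and between -0.13 and 0.35 for the remaining 5.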

How the data were processed

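Reads of the 30 libraries were trimmed, aligned to mRatBN7.2 and counted per gene with Ensembl 111 by the authors (Cutadapt 4.4, Trimmomatic 0.39, HISAT2 2.2.1, HTSeq 2.0.3), and whether counting used strand or multi-mapped reads is not given in the sources used here. The deposited values are a signal: read counts divided by DESeq2 (1.40.2) size factors by the authors, separately in each table of 6 libraries. Of 19 tables, 15 were used and 4 that set CBD against a fumarate with another vehicle were not. The authors' own fold changes and p-values, also in the tables, were not used. Steps of the low values gave back whole reads for 100% of 1804752 values (tolerance 1e-06), from which depth, CPM and count tests were computed.

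Each comparison was fitted with limma 3.58.1 (trend, R 4.3.3) on log2(deposited value + 1), after edgeR's filterByExpr on the recovered reads (13967 to 14283 genes kept), with Benjamini-Hochberg adjustment over all genes and a threshold of 0.05. Fold changes on this scale understate those of low genes such as Abcb1a. Alternatives were a replicate block, another pseudocount (0.1), no filter, TMM scaling, edgeR 4.0.16, DESeq2 1.42.0, the spread of all 30 libraries and leaving out each library. DESeq2 with the block was added after seeing the data. Replicate numbers were taken as pairs: deviations of same-numbered libraries correlated at 0.129 to 0.668, above the minimum of 0.1 set for pairing. Those of different numbers reached 0.185, so passing that minimum does not by itself mark a pair. For MMF against DMSO at 4 h, replicate 2 had 0.129, and the highest value between numbers was 0.134. The main fits left this pairing out, and results that use it are those given with the replicate block. Members and lists were chosen with earlier results of these data known. Named genes were the members, the other ABC genes past the threshold, the 3 genes of smallest p per list and comparison, the 5 genes most like Abcc4, and Abcb1b, Abcb4, Abcc2 and Abcg1 as nearest relatives. The fits were tested on simulated counts. Promoters came from RefSeq on GRCr8 and were not joined by coordinates to the mRatBN7.2 files.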

Additional observations from a re-analysis of the deposited data

How the results depend on the processing

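Of 1844 tested values of single genes under alternatives, 1793 were called or not called as in the text and stayed close to the value given, 16 moved, 19 lost their call, 16 gained one and 0 changed direction with a call. The values of DMF against DMSO, and of Abcc4 in the other comparisons that use DMF libraries, carry no call here and were compared by size alone: of 252 such values under alternatives, 7 moved. The number of members called in DMF against DMSO at 4 h was 1, and it was 3 with the replicate block, 2 with DESeq2 and the block (chosen after seeing the data), 0 without the filter, with TMM scaling, with edgeR or with the spread of all 30 libraries, and 0 to 0 leaving out a library. At 24 h it was 1, and 3 with the block, 3 with DESeq2, 2 with DESeq2 and the block, and 0 to 2 leaving out a library. For CBD against EtOH it was 0, and 1 with the block at 4 h, 3 with the spread of all 30 libraries at 24 h, and 0 to 1 leaving out a library at 24 h (1 without replicate 1 of CBD). For DMF against MMF at 4 h, without Abcc4, it was 0, and 2 with the block, 1 with DESeq2 and the block and 1 with the spread of all 30 libraries. Abcg2 was among those with the block and was the gene called with that spread. At 24 h the number was 1 (Abcb1a), and 0 to 0 leaving out a library. From 4 h to 24 h of DMF, without Abcc4, it was 3, and 6 with the block and 4 with DESeq2, Abcb1a among them in both, 1 without the filter and 1 to 2 leaving out a library. In CBD over time it was 0, and 1 with DESeq2. For the MMF effect minus the CBD effect at 24 h it was 0, and 0 to 2 leaving out a library. The pairing by replicate number changed no other count of members called. The cause of these changes was not tested, except that leaving out a library lowers the number of samples. Depth limits Abcb1a, Abcc3 and Abcg2, whose median was 6.5, 22 and 25.5 reads per library, and counting error alone is large there.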
